A study of Mus musculus with 2 samples.

Results

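The miR-193 and miR-365 loci are 4 microRNA genes arranged as a pair of duplicated clusters, and they were followed here in mouse gastrocnemius, the large calf muscle. The members were the rows of both count tables whose identifiers map in GENCODE M21 to Mir193b, Mir193a, Mir365-1 or Mir365-2, which gave 4 of 2202 microRNA genes. The tissue came from male B6CASTF1/J mice aged 36 days, an F1 cross between C57BL/6J and CAST, with no treatment or engineered allele named in the labels. The 2 libraries, replicates 1 and 2, formed 1 group from animals described as 2 different males, although the labels give both the same donor identifier. The depth was 4134880 same-strand microRNA reads in replicate 1 and 3219740 in replicate 2. With no other condition, genes were compared with each other inside each library, and 1 library was set against the other. Differences between the libraries are called differences between animals below, which holds only if the donors differ.

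A microRNA gene is transcribed as a hairpin that is cut into a 5p and a 3p arm, each a short RNA that guides repression of messenger RNAs matching its seed, bases 2 to 8. miR-193b and miR-365 are best known from brown fat, whose precursors share an origin with skeletal muscle. In cultured precursors the cluster has been reported to favour the brown adipocyte over the muscle fate, through repression of Runx1t1 and of the myogenic factors Cdon and Igfbp5, while mice lacking it have been reported to form brown fat.

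The mature arms are shown first, because what they share decides which reads of each locus can be told apart. They are the RefSeq sequences, which were found for all 4 members, 5′ to 3′ with the seed in capitals.
miR-193b-3p: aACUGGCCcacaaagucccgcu
miR-193a-3p: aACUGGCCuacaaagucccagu
miR-193b-5p: cGGGGUUUugagggcgagauga
miR-193a-5p: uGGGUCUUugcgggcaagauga
miR-365-3p of both Mir365 loci: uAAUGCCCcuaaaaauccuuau
miR-365-1-5p: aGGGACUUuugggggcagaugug
miR-365-2-5p: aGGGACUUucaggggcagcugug
The miR-193 3p arms have 1 seed in common, and no other arm in the RefSeq table carries it. Counted from the 5′ end of the arm, miR-193b-3p and miR-193a-3p differ at 3 of 22 bases, as C9U, G20A and C21G. Their 5p arms differ at 5 of 22 bases and have different seeds. The miR-365 3p arm is identical at both loci, whereas the 5p arms share a seed and differ at 3 of 23 bases, as U10C, G11A and A19C.

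The same contrast held along the hairpins. Mir193b and Mir193a have at most 10 bases in a row in common, and none of their 20-base windows (60 for Mir193b, 47 for Mir193a) occurs in any other annotated microRNA hairpin. The Mir365-1 and Mir365-2 hairpins share 27 bases in a row, shown in capitals because this stretch holds the whole 3p arm.
Mir365-1: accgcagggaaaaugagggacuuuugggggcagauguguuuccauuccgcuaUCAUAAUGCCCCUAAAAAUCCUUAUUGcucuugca
Mir365-2: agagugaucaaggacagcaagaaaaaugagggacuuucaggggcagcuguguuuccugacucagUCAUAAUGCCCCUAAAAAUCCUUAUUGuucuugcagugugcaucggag
Of the 20-base windows, 8 of 68 in Mir365-1 and 8 of 93 in Mir365-2 occur in the other hairpin, and these include all 3 windows of the 3p arm in each. Apart from this sharing, no 20-base window of the 4 members occurs in another gene's GENCODE transcript. Among all 2202 microRNA genes, 50.6% share no 20-base window with a hairpin elsewhere, as Mir193b and Mir193a do, and 35.7% share some of their windows, as Mir365-1 and Mir365-2 do.

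**Figure D1:**
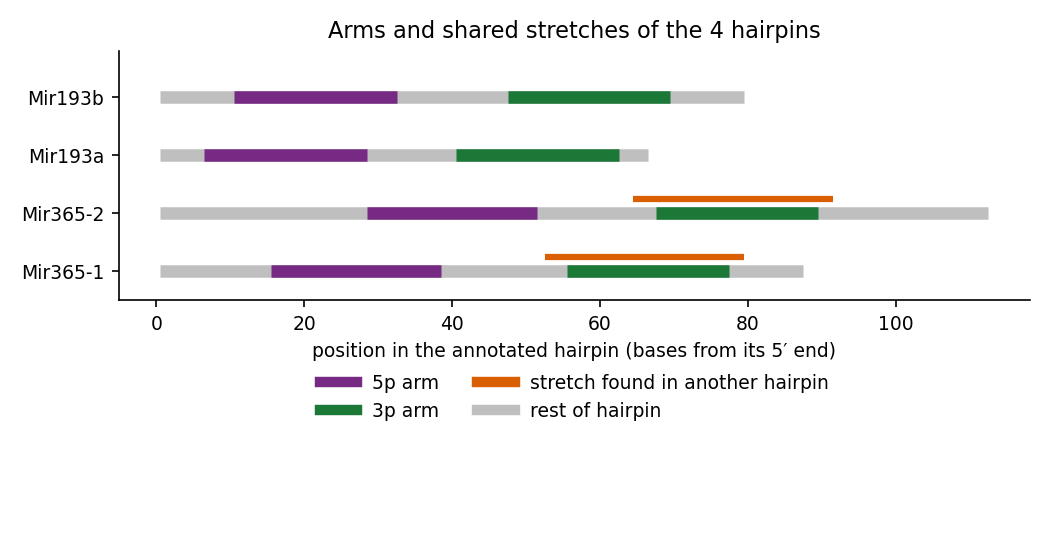
The 4 annotated hairpins to scale, in bases from their 5′ end, with the 5p and 3p arms and, above the line, any stretch whose 20-base windows occur in another hairpin. The 27-base shared stretch covers the whole 3p arm of both Mir365 hairpins, and Mir193b and Mir193a have none.

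Positions are in mm10. Mir193b (ENSMUSG00000076972.2) spans 13449523 to 13449601 of chromosome 16, plus strand, and Mir365-1 (ENSMUSG00000065449.1) follows 4.2 kb further on the same strand, from 13453840 to 13453926. No annotated gene on their strand contains them, and both lie within the span of Gm15738, an antisense RNA on the minus strand. Mir193a (ENSMUSG00000065395.1) spans 79711969 to 79712034 of chromosome 11, plus strand, outside other annotated genes, and Mir365-2 (ENSMUSG00000065489.1) follows 14.4 kb further, from 79726400 to 79726511. Nearly every read at the members lay on the annotated strand, with 1 opposite-strand read in all, at Mir193a in replicate 1, against 1191 same-strand reads in replicate 1 and 1112 in replicate 2.

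Both miR-193 loci were counted at moderate levels in the muscle, Mir193b above Mir193a, while the miR-365 loci were counted near the limit of detection. Levels are CPM, meaning counts scaled to 1000000 counted reads in the library. Each read stands for 1 small RNA, so CPM was not divided by hairpin length. Intervals are exact 95% Poisson intervals and cover counting error alone.

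Mir193b, the miR-193 gene of the chromosome 16 cluster, had 751 counts in replicate 1, or 182 CPM (169 to 195), and 691 in replicate 2, or 215 CPM (199 to 231). Its mean was 198 ± 23.3 CPM (SD, n = 2), place 132 in the order of all genes. Mir193a, its paralog with the same 3p seed, had 424 counts in replicate 1, or 103 CPM (93.0 to 113), and 404 in replicate 2, or 125 CPM (114 to 138). Its mean was 114 ± 16.2 CPM, place 156. Both values of Mir193b lay above both values of Mir193a.

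Mir365-2 had 13 counts in replicate 1, or 3.14 CPM (1.67 to 5.38), and 8 in replicate 2, or 2.48 CPM (1.07 to 4.90). Mir365-1 had 3 counts in replicate 1, or 0.726 CPM (0.150 to 2.12), and 9 in replicate 2, or 2.80 CPM (1.28 to 5.31). The means were 2.81 ± 0.466 CPM and 1.76 ± 1.46 CPM, places 307 and 338, and the values of these loci overlapped. The limit that a count of 0 allows, 3 counts, is 0.726 CPM in replicate 1 and 0.932 CPM in replicate 2. The counts of the Mir365 loci concern reads placed at 1 locus. A perfect read of the 3p arm matches both loci, and the tables do not show which arm a counted read came from.

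**Figure D2:**
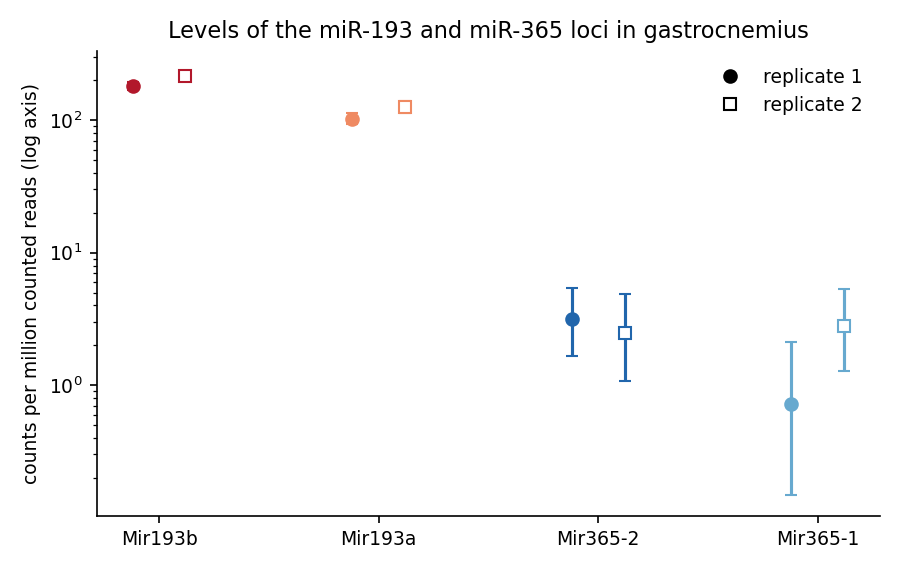
CPM of each member on a log axis, with filled circles for replicate 1, open squares for replicate 2 and bars for exact 95% Poisson intervals. Mir193b and Mir193a stand between 103 and 215 CPM, while both Mir365 loci stand below 4 CPM with wide, overlapping intervals.

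Multi-locus reads, those aligned to several places, took 70.4% of the reads of replicate 1 and 73.3% of those of replicate 2, and the layout of the tables is one in which such reads enter no gene's count. A share of 0.00541% of those reads in replicate 1 would equal the whole count of Mir193b. The total of miR-365-3p in this muscle was therefore not measured by these counts, and how much of the multi-locus pool it makes up was not tested. Mismatches of CAST alleles against mm10 were not analysed here.

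Of the 4 members, Mir193b and Mir193a had at least 10 counts in both libraries, a threshold passed by 13.4% of all microRNA genes. The 295 genes that passed had a median of 145 CPM, so Mir193b stood above and Mir193a below it. Together the members held 0.0288% of counted reads in replicate 1 and 0.0345% in replicate 2, of which the miR-365 loci gave 16 of 1191 counts and 17 of 1112.

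The genes next to Mir193b in mean level were Mir132 (202 ± 0.396 CPM) and Mir181a-1 (199.95 ± 31.5 CPM) above it, and Mirlet7c-1 (197 ± 42.5 CPM) and Mir300 (195 ± 31.4 CPM) below it. Around Mir193a stood Mir376b (127 ± 38.8 CPM), Mir1843b (116 ± 1.17 CPM), Mir134 (112 ± 30.7 CPM) and Mir138-1 (111 ± 72.9 CPM). The mean ± SD ranges of these neighbours overlapped that of the member, so their order is not resolved. By distance between log2(CPM + 1) values over the 2 libraries, the genes most like Mir193b were Mir30c-2, Mir1843a and Mir190a, at distances of 0.07, 0.14 and 0.16. Those most like Mir193a were Mir208b, in an intron of the slow myosin gene Myh7, at 0.12, then Mir1843b at 0.22 and Mir339 at 0.35. With 2 libraries this describes similar levels and no more.

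**Figure D3:**
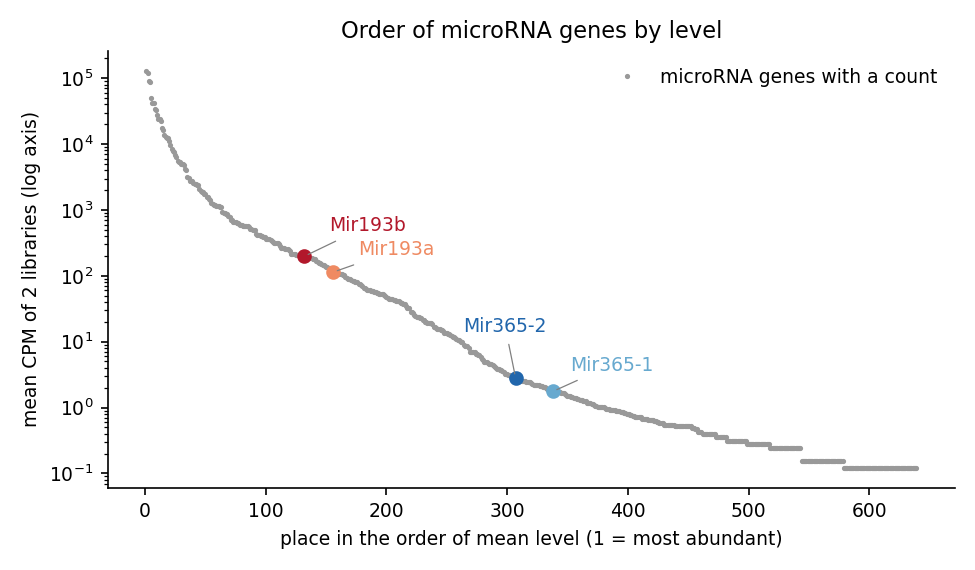
Mean CPM on a log axis against place in the order of level, for the 639 microRNA genes with a count in either library. Mir193b and Mir193a stand at places 132 and 156, and Mir365-2 and Mir365-1 at places 307 and 338.

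Ratios between members within a library do not depend on its depth. Mir193b had 1.77 times the counts of Mir193a in replicate 1 (exact 95% interval 1.57 to 2.00) and 1.71 times in replicate 2 (1.51 to 1.94). Mir193b thus gave 63.9% (exact Clopper-Pearson interval 61.1 to 66.7) and 63.1% (60.2 to 66.0) of the reads of the miR-193 loci. On the log2 scale of counts + 0.5, Mir193b exceeded Mir193a by 0.80 ± 0.04 (SD, n = 2), or by 0.54 when counts were divided by hairpin length. The ratio was nearly the same in both animals.

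Within each cluster the miR-193 gene had far more counts than its miR-365 neighbour. Mir193b had 250.3 times the counts of Mir365-1 in replicate 1 (interval 85.3 to 1217) and 76.8 times in replicate 2 (40.2 to 169). Mir193a had 32.6 times the counts of Mir365-2 in replicate 1 (18.9 to 61.8) and 50.5 times in replicate 2 (25.4 to 118). The log2 ratios of the miR-365 over the miR-193 gene were −6.97 ± 1.10 on chromosome 16 and −5.27 ± 0.42 on chromosome 11. These ratios set a locus with an arm found once beside a locus whose 3p arm is found at 2 loci, and they do not give the ratio of the mature RNAs.

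The Mir365 loci themselves were not ordered. Mir365-2 had 4.33 times the counts of Mir365-1 in replicate 1 (1.19 to 23.7) and 0.889 times in replicate 2 (0.298 to 2.60), with a log2 ratio of 0.89 ± 1.49. An exact sign-flip test of any of these ratios over 2 libraries cannot give a p below 0.5, and none was run.

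Neighbouring microRNA genes often differed widely in count. In 136 pairs of adjacent same-strand genes at most 10 kb apart, with at least 1 gene at 10 or more counts in both libraries, the median absolute log2 ratio was 4.04. Mir193b with Mir365-1 stood at 6.97, above 75.7% of the pairs. A further 32 pairs differed more, and in 20 of these 1 gene had no count in either library. The 78 pairs in which neither gene shares 20 bases with another hairpin had a median of 2.78, with 15 above 6.97. The 58 other pairs, which include Mir193b with Mir365-1, had a median of 6.12, with 17 above 6.97. Mir193a and Mir365-2 lie too far apart for this set, and with a limit of 20 kb, chosen after their distance was seen, 59 of 140 pairs differed more than they did. Pairs can have a gene in common and are not independent.

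**Figure D4:**
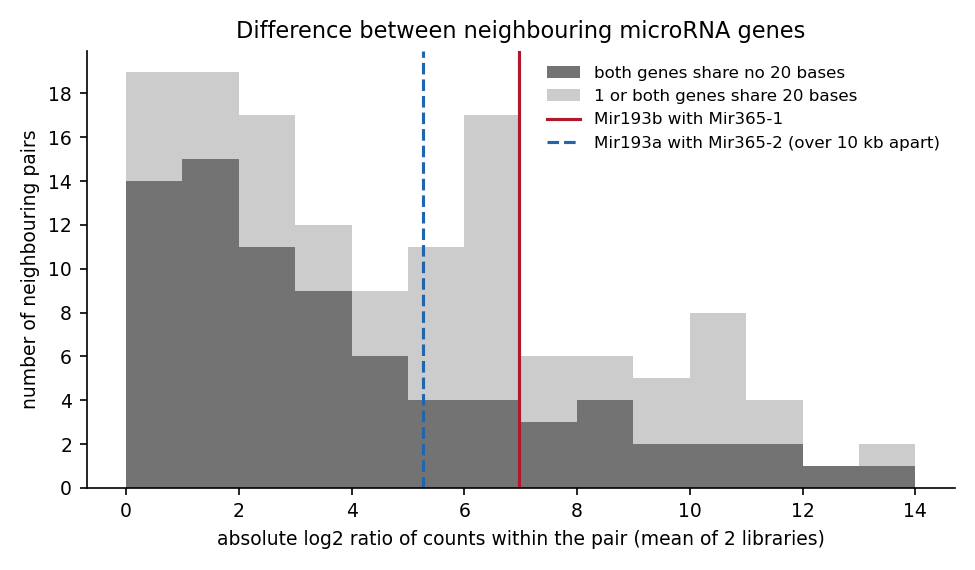
Number of neighbouring pairs against the absolute log2 ratio of their counts, stacked by whether both genes (dark) or not both (light) are free of 20 bases shared with another hairpin. The solid line marks Mir193b with Mir365-1 at 6.97, and the dashed line Mir193a with Mir365-2 at 5.27, which is not among the pairs because it spans 14.4 kb.

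Between the animals, both miR-193 loci had more CPM in replicate 2, by similar amounts. Ratios are log2 of replicate 2 over replicate 1 for CPM + 1 with TMM scaling, for the 261 genes whose mean reached 10 CPM, and 1 library a side allows no test. The ratio was 0.41 for Mir193b and 0.45 for Mir193a, and 13 and 9 of the 261 genes had a higher one. Neither was past 2-fold, which 5.36% of the genes were, and 44.1% of the genes were higher in replicate 2 by any amount (20.3% with scaling to total counts, 51.0% with DESeq2 size factors). The median gene was at −0.05 with TMM, at −0.21 with scaling to total counts and at 0.0026 with DESeq2 size factors. Relative to that median, Mir193b stood at 0.46, 0.45 and 0.46, and Mir193a at 0.50 under each. Scaled to total counts, the CPM ratio was 1.18 for Mir193b (counting interval 1.06 to 1.31) and 1.22 for Mir193a (1.07 to 1.41).

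The Mir365 loci lay below the minimum of 10 CPM. Their CPM ratios were 0.790 for Mir365-2 (counting interval 0.284 to 2.06) and 3.85 for Mir365-1 (0.961 to 22.1), so a difference between animals was not detectable at this depth.

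**Figure D5:**
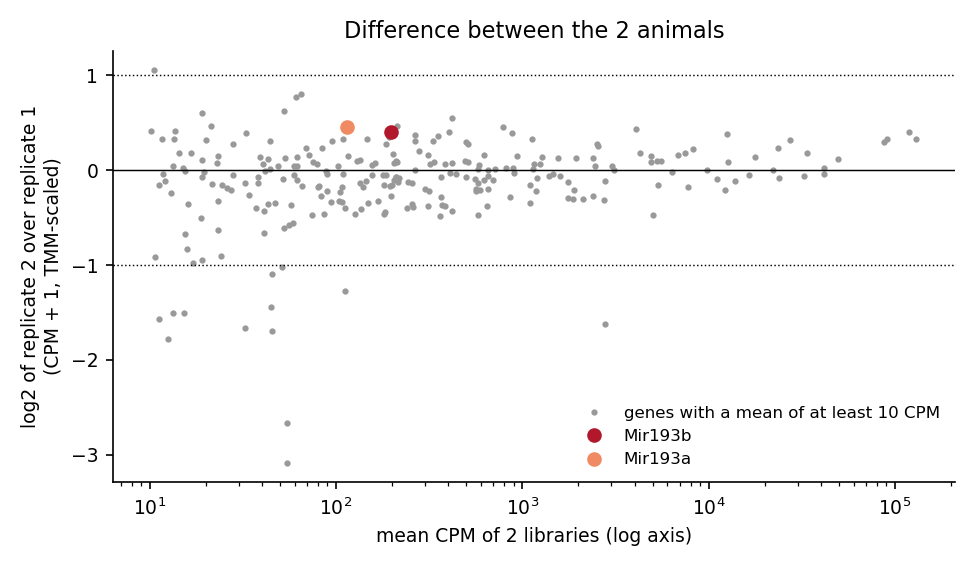
The log2 ratio of replicate 2 over replicate 1 against mean CPM (log axis) for the 261 genes whose mean reached 10 CPM, with dotted lines at 2-fold. Mir193b and Mir193a stand at 0.41 and 0.45, within 2-fold.

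Marker lists of muscle and other cell types were compared between the libraries. Counting intervals of the share did not overlap for the striated muscle, smooth muscle and fibroblast, endothelial, neuron and glia, and liver lists. They overlapped for the leukocyte, red cell and epithelial lists, so a difference in those shares is not resolved. Striated muscle markers, all 9 of which had at least 10 counts in both libraries, held 2.74% of counted reads in replicate 1 and 3.04% in replicate 2, with 7 of 8 tested genes higher in replicate 2 under each scaling, beside 44.1% of all tested genes with TMM, and a median log2 ratio of 0.33. They were led by Mir206, the skeletal muscle microRNA, at 27262 ± 2019 CPM, which made up 94.3% of the list, and Mir1a-2 reached 331 ± 22.8 CPM. The hairpins of the Mir1a and Mir133 loci share stretches with other hairpins, while that of Mir206 shares none. Reads of a shared stretch match several places and may enter no gene's count. The gap between Mir206 and Mir1a-2, and the share of the list, therefore need not be those of the mature RNAs. The 6 smooth muscle and fibroblast genes held 8.67% and 9.46%, of which Mir143 made up 95.9%. In that list 2 of 5 tested genes were higher in replicate 2 and 3 were lower, with a median log2 ratio of −0.32. Endothelial Mir126a held 8.54% and 9.58%, and the 5 leukocyte genes, led by Mir155, held 0.233% and 0.242%. Of those 5 genes, 4 were higher in replicate 2 with TMM (3 with scaling to total counts) and 1 was lower. Their log2 ratios ran from −0.37 to 0.46. The neuron and glia list, led by Mir338, which made up 99.6% of it, held 0.430% and 0.124%, with its 3 Mir124a loci at 0. The Mir124a hairpins also share stretches with other hairpins, so a count of 0 there does not show that the mature RNA was absent. Red cell genes, led by Mir451a, held 0.0405% and 0.0394%, with 1 of the 2 higher in replicate 2 with TMM and 1 lower. Liver Mir122 had 85 and 15 counts. Epithelial genes held 0.0233% and 0.0214%, of which Mir203 made up 95.6%. The other epithelial genes, Mir200c, Mir200b and Mir205, had means of 4.97, 2.50 and 2.44 CPM. Mir203 is also in the list favouring brown or beige fat described next, and Mir155 and the Mir133 loci are also in the opposing list. The part of any of these in the ratios of the miR-193 loci was not tested. In bulk tissue, fewer cells of a type and less RNA per cell cannot be told apart, and no microRNA listed here marks adipocytes alone.

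Other microRNAs reported to act on brown or beige fat were set beside the members. Of 16 reported to favour these adipocytes, 13 had at least 10 counts in both libraries, beside 13.4% of all microRNA genes. A higher mean than that of Mir193b, at place 132 of 2202 genes, was found for 8 of the 16. The list was chosen from reported microRNAs with earlier results known, so these counts do not set it apart. The list held 15.6% ± 0.806 of counted reads, of which Mir378a, within the metabolic regulator gene Ppargc1b, made up 83.6% at 130385 ± 10039 CPM. The share of the list was 3.40% with counts taken from either strand and 2.36% without genes that share 20 bases with another hairpin, where the opposing list described next held 7.61% and 4.50%. With strand ignored, 988119 reads of replicate 1 and 833648 of replicate 2 were labelled ambiguous and entered no gene's count. How many of them lay at Mir378a was not tested, so the order of the lists by that count need not be that of the RNAs. The 2.36% leaves out Mir378a, which shares some windows. Mir26b followed at 22183 ± 1842 CPM, Mir196a-2, from a Hox cluster, at 1131 ± 91.0 CPM and Mir26a-2 at 564 ± 105 CPM. Some arms of Mir196a-2 and Mir26a-2 occur in a hairpin elsewhere, while Mir26b shares no 20-base window. Their order need not be that of the mature RNAs. Between animals, 8 of the 13 tested were higher in replicate 2 (7 with scaling to total counts, 9 with DESeq2 size factors), with a median log2 ratio of 0.21. Of all tested genes 44.1% were higher (20.3% and 51.0% with those scalings), with a median of −0.05. Mir182, also known from sensory neurons, was the list gene past 2-fold, with 399 counts in replicate 1 and 41 in replicate 2 (log2 ratio −2.67).

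All 12 microRNAs reported to oppose brown or beige fat had at least 10 counts in both libraries, beside 13.4% of all microRNA genes. Of the 12, 8 had a higher mean than Mir193b, beside 131 of the 295 microRNA genes that passed this threshold. This list was chosen in the same way, and it held 5.72% ± 0.405 of counted reads. Mirlet7i led at 41638 ± 2970.2 CPM, followed by Mir27b at 9804 ± 784 CPM, Mir27a at 1935 ± 39.5 CPM and Mir93, within Mcm7, at 1275 ± 16.99 CPM. Mir133a-1, Mir133b and Mir133a-2, muscle microRNAs that repress the brown fat regulator Prdm16, had 24.5 ± 3.95, 13.4 ± 1.21 and 3.28 ± 0.193 CPM and share arms or stretches with other hairpins. Between animals, 6 of 11 tested were higher in replicate 2 (2 with scaling to total counts, 7 with DESeq2 size factors), with a median log2 ratio of 0.0037. The shares of all tested genes under the same scalings were 44.1%, 20.3% and 51.0%, and the list count is not set apart from them. Both lists thus held far more counted reads than the 4 members, whose share was 0.0317% ± 0.00405. These are sums over 16, 12 and 4 genes, and Mir378a and Mirlet7i made up 83.6% and 72.8% of the 2 lists. The median gene had 203 CPM in the favouring list, 615 in the opposing list and 58.4 among the members, beside 198 CPM for Mir193b. The lists rest on roles reported in fat, and these data hold no fat sample.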

How the data were processed

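MicroRNA-seq was run on total RNA of gastrocnemius, in 2 libraries described as from 2 males but labelled with the same donor identifier. The authors deposited 1 table of raw read counts per library, for 2202 microRNA genes, with mm10 and GENCODE M21 named in the deposited file descriptions. For the aligner, counter and trimming, nothing is given in the sources used here. The tables hold counts ignoring strand, on the gene's strand (used here) and on the opposite strand. Rows naming no gene stayed out of library sizes. They held the remainder beside counted reads, which were 20.96% and 19.2% of all reads.

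CPM, exact intervals, log2 ratios of counts + 0.5 and log2 ratios of CPM + 1 were computed with Python 3.11.15 and SciPy 1.17.1, TMM factors with edgeR 4.0.16 and size factors with DESeq2 1.42.0. Ratios and shared windows were tested on simulated data. Hairpins came from GENCODE M21 transcripts and arms from RefSeq, with exact matches alone. Windows were compared among hairpins and transcripts, since no genome sequence was used here. Both libraries are 1 group, and their spread may be technical.

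The members and lists were chosen with earlier results of these data known. Genes were named if they were members, their 2 neighbours on each side or 3 nearest genes, the 4 highest of a brown fat list or past 2-fold in it, Mir206, Mir1a-2 or the highest of another marker list, or carried a member's seed. The 3 Mir133 loci were added after their values were seen.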

Additional observations from a re-analysis of the deposited data

How the results depend on the processing

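Counts taken from either strand were the same for the members, apart from 1 more read at Mir193a in replicate 1. The library total fell to 3146804 and 2386117 reads, with 988119 and 833648 reads labelled ambiguous. On that smaller total, levels became 264 CPM for Mir193b, 152 for Mir193a and 3.74 for Mir365-2. Shares became 0.0422% for the members, 3.40% for the favouring list and 7.61% for the opposing list. Per 1000000 of all reads, Mir193b had 39.6, Mir193a 22.8 and Mir365-2 0.568, and the shares were 0.00634%, 3.13% and 1.15%. Without the most abundant gene in the library size, Mir193b had 228 CPM and Mir193a 131. Without its own leading gene, each set held 0.0119%, 2.56% and 1.56%. Without genes sharing 20 bases with another hairpin, the favouring list held 2.36% and the opposing list 4.50%. Per base of hairpin, the log2 ratio became 0.54 for Mir193b over Mir193a and −6.04 for Mir365-2 over Mir193a. With a minimum of 1 CPM or none, 1 member, Mir365-1, was past 2-fold, beside 31 of 380 and 41 of 2202 genes. The log2 ratio of Mir365-2 over Mir365-1 ran from −0.16 to 1.95 when 1 replicate was left out, so its sign rests on replicate 1. The cause was not tested. Of the other alternatives to the main values of the comparisons, those that keep both replicates, 25 stayed within the replicate spread or, for counts, within 1.5 times, and 23 moved. That spread is the SD of 2 libraries, so a noisy locus can shift far within it. Mir365-1 went from 1.76 CPM to 0.344 per 1000000 of all reads, within its SD of 1.46. Ratios between members from either strand repeat nearly the same counts. The 25 are therefore no measure of stability. With 2 replicates, leaving 1 out cannot move a mean by more than its SD, so such values say nothing of stability. No paired analysis was possible because there is 1 group. Windows could not be compared with a genome, so that search was not run. Depth limits the Mir365 loci, at 3 to 13 counts, and their shared 3p arm is a separate limit.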

Other observations

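Loci that share an arm with another locus had a wide range of counts. Among genes with arms in the RefSeq table, 61 have some arms, but not all, in a hairpin elsewhere, as both Mir365 loci do, and 32 of them (52.5%) had at least 10 counts in both libraries. The share was 5 of 49 (10.2%) where all arms are shared and 228 of 908 (25.1%) where none is. In the order of mean CPM within the 61, Mir365-2 and Mir365-1 stood at places 33 and 37, and Mir196a-2 of the favouring list stood at place 2 with 1131 ± 91.0 CPM. These are counts of genes, without a test.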
